A study of Mus musculus with 18 samples.

Results

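The 36 genes described here were listed for the loop of Henle and the distal nephron of the mouse kidney. Not all of them are confined to the segment they are listed under. The genes were listed by symbol, with earlier results of these data known, so shares set against all genes are descriptions and not tests of the list. They are 36 of the 45706 genes counted in each library, and they fall into 6 genes of the thick ascending limb, 12 of the distal convoluted and connecting tubule, 9 of the principal cell and inner collecting duct and 9 of the intercalated cell. RNA was sequenced from 18 whole kidneys of male mice on a C57BL/6 background (C57BL/6J for both floxed lines), each taken 12 h after 22.5 min of bilateral ischemia. The mice belonged to 2 lines with floxed alleles of *Cxcl12*, a chemokine, or of *Myc*, a transcription factor that drives growth. All mice carried Pax8rtTA and had received doxycycline, which was then washed out, and the knockout (KO) mice also carried TetOCre, so that the recombinase was made in tubule cells. The groups were 5 *Cxcl12* KO kidneys (CXCL12 F/F Pax8rtTA TetOcre), 3 *Cxcl12* Control kidneys (CXCL12 F/F Pax8rtTA), 5 *Myc* KO kidneys (Cmyc F/F Pax8rtTA TetOcre) and 5 *Myc* Control kidneys (Cmyc F/F Pax8rtTA). The mice were young adults when doxycycline was given. Every kidney had been through ischemia, so the comparisons show the effect of the deletion in injured kidneys and not that of injury. The Pax8 promoter is active along the tubule, whereas vessels, glomerular and immune cells keep the floxed gene and still contribute RNA to the whole organ. In whole-organ RNA, fewer cells of a segment and less RNA per cell cannot be told apart.

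The thick limb reabsorbs salt without water, which builds the gradient used to concentrate urine, and it returns calcium and magnesium between its cells. The distal convoluted tubule fine-tunes sodium, potassium, magnesium and calcium through the WNK kinases and the thiazide-sensitive cotransporter. In the collecting duct, principal cells take up sodium under aldosterone and water under vasopressin, while intercalated cells secrete acid or bicarbonate with a vacuolar proton pump. These segments lie downstream of the proximal tubule, a main site of ischemic injury.

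Promoter sequence is shown for 4 of the genes, because they hold a motif of a factor that bears on the design. The E-box CACGTG is a site to which Myc binds with its partner Max. The forkhead motif TGTTTAC is read by factors of the Foxi1 class, the master regulator of intercalated cells. The steroid receptor element, a palindrome with a gap of any letters, is the binding site shared by the mineralocorticoid and the glucocorticoid receptor. The sequences come from RefSeq on GRCm38.p6, are written in the direction of transcription, and carry the motifs in capitals.
Sgk1: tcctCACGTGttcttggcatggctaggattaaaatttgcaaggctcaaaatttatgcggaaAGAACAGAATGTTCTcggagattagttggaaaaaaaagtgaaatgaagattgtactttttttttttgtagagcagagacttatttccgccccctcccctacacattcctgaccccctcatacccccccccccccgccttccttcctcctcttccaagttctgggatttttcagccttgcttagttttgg
Trpm7: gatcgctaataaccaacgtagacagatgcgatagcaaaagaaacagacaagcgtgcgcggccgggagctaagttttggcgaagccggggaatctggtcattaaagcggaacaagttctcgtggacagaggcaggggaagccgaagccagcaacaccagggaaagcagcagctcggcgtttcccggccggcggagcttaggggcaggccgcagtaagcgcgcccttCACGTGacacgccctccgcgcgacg
Slc12a1: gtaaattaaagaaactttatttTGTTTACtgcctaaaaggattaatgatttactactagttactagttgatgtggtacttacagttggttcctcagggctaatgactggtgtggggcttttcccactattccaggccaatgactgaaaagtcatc
Atp6v1b1: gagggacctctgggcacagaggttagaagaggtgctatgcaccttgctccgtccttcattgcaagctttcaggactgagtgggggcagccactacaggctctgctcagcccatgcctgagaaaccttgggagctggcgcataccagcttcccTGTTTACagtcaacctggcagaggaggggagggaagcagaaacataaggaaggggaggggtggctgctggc

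The *Sgk1* stretch lies at chr10:21993640-21993889 on the plus strand, inside the longer gene annotated there, and holds the E-box and the receptor palindrome. It is 1 of 6 windows given for *Sgk1*, and the other 5 hold none of the 3 motifs. The *Trpm7* stretch lies at chr2:126876262-126876511 on the minus strand and holds an E-box. The *Slc12a1* stretch at chr2:125152350-125152504 and the *Atp6v1b1* stretch at chr6:83742767-83742989, both on the plus strand, each hold the forkhead motif. Over all 32851 windows of 250 bases before a start, searched on both strands, the E-box occurred in 6.02%, the forkhead motif in 3.17% and the palindrome in 0.00913% (3 windows). No motif overlapped another in the printed stretches. Windows were given for 27 of the 36 genes, and among these the E-box was found in *Sgk1* and *Trpm7*, the forkhead motif in *Atp6v1b1*, *Avpr2* and *Slc12a1*, and the palindrome in *Sgk1*. A match is a description of these letters and not a binding site, and its absence says nothing of a factor. None of these 4 genes was called in either KO effect by edgeR or DESeq2, and their fitted log2 fold changes in *Cxcl12* KO and *Myc* KO kidneys were 0.20 and 0.21 for *Sgk1*, -0.14 and 0.07 for *Trpm7*, -0.64 and 0.18 for *Slc12a1* and -0.78 and -0.05 for *Atp6v1b1*.

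Each kidney had 12918220 to 29749500 reads on genes, with a median of 17484113. In 6 kidneys, under 5% of reads were unmapped, and these also had the most reads. They are called the deeper kidneys here, a split made from the mapping figures and not named by the labels. They were *Cxcl12* KO 1 and 2, *Myc* KO 3 and 5, and *Myc* Control 1 and 3, so no *Cxcl12* Control kidney was among them. Levels are given in CPM, a gene's reads over the reads of its library, scaled between libraries by the TMM method. The deleted genes served as a check of the labels: *Cxcl12* had 53.5 ± 7.92 CPM (SD, n = 3) in its control and 32.3 ± 6.07 CPM (SD, n = 5) in its KO kidneys, and *Myc* had 94.9 ± 14.5 and 30.98 ± 3.95 CPM (SD, n = 5 each). Their log2 fold changes were -0.73 (SE 0.15, edgeR adjusted p = 0.094), with all KO kidneys below all controls, and -1.61 (SE 0.12, edgeR adjusted p = 8.8e-05). Markers of the kidney tubule were abundant in every library, with proximal tubule markers summing to between 8156 and 15050 CPM.

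The *Cxcl12* KO effect leaned to lower levels of these genes. Of the 36 genes, 35 had enough counts to be tested, and *Avpr2*, the vasopressin receptor, did not. Its highest count was 2, and 81.3% of its exon length is shared with the opposite-strand gene *Arhgap4*, where reads are left uncounted as ambiguous. The fitted level was lower in *Cxcl12* KO kidneys for 30 of the 35 genes, against 49.8% of all 15154 genes tested, and their median log2 fold change was -0.26, beside 0.00 over all genes. In 12 of 35 genes (34.3%) the KO and control kidneys did not overlap, 11 with the KO lower and 1, *Trpm6*, with the KO higher, where 9.68% of all genes had such groups (4.72% lower and 4.96% higher). No gene was called at an adjusted p under 0.05 by edgeR's quasi-likelihood test, among these 35 or among all genes (0.0%). At an unadjusted p under 0.05, the same test had 15 of the 35 and 13.0% of all genes. DESeq2 called 8 of the 35, against 2.34% of all genes, with 7 lower (1.35% of all genes) and 1 higher (0.99%), and limma-voom called 0. A single edgeR fit over all 18 kidneys called *Casr* and *Hsd11b2*, both lower, against 0.157% of all genes.

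The *Myc* KO effect showed no such lean. The fitted level was higher in *Myc* KO kidneys for 24 of the 35 genes, against 49.9% of all genes, and lower for 11, with a median log2 fold change of 0.10 beside -0.001 over all genes. By edgeR's quasi-likelihood test 0 of the 35 were called, where 1.65% of all 14936 genes were, and 8 of the 35 had an unadjusted p under 0.05, against 21.9% of all genes. Only in *Scnn1g* did the KO and control kidneys not overlap (2.86% of the 35, against 5.97% of all genes, 3.92% with the KO lower). DESeq2 called 5 of the 35, against 7.63% of all genes, with 4 lower (4.35% of all genes) and 1 higher (3.27%), and limma-voom called 0 of the 35. The single fit over all 18 kidneys called *Bsnd*, against 4.29% of all genes. Of the 35 genes, 11 had a lower fitted level in the KO kidneys of both lines, 5 a higher one in both, and 19 a lower one in *Cxcl12* KO and a higher one in *Myc* KO.

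**Figure D1:**
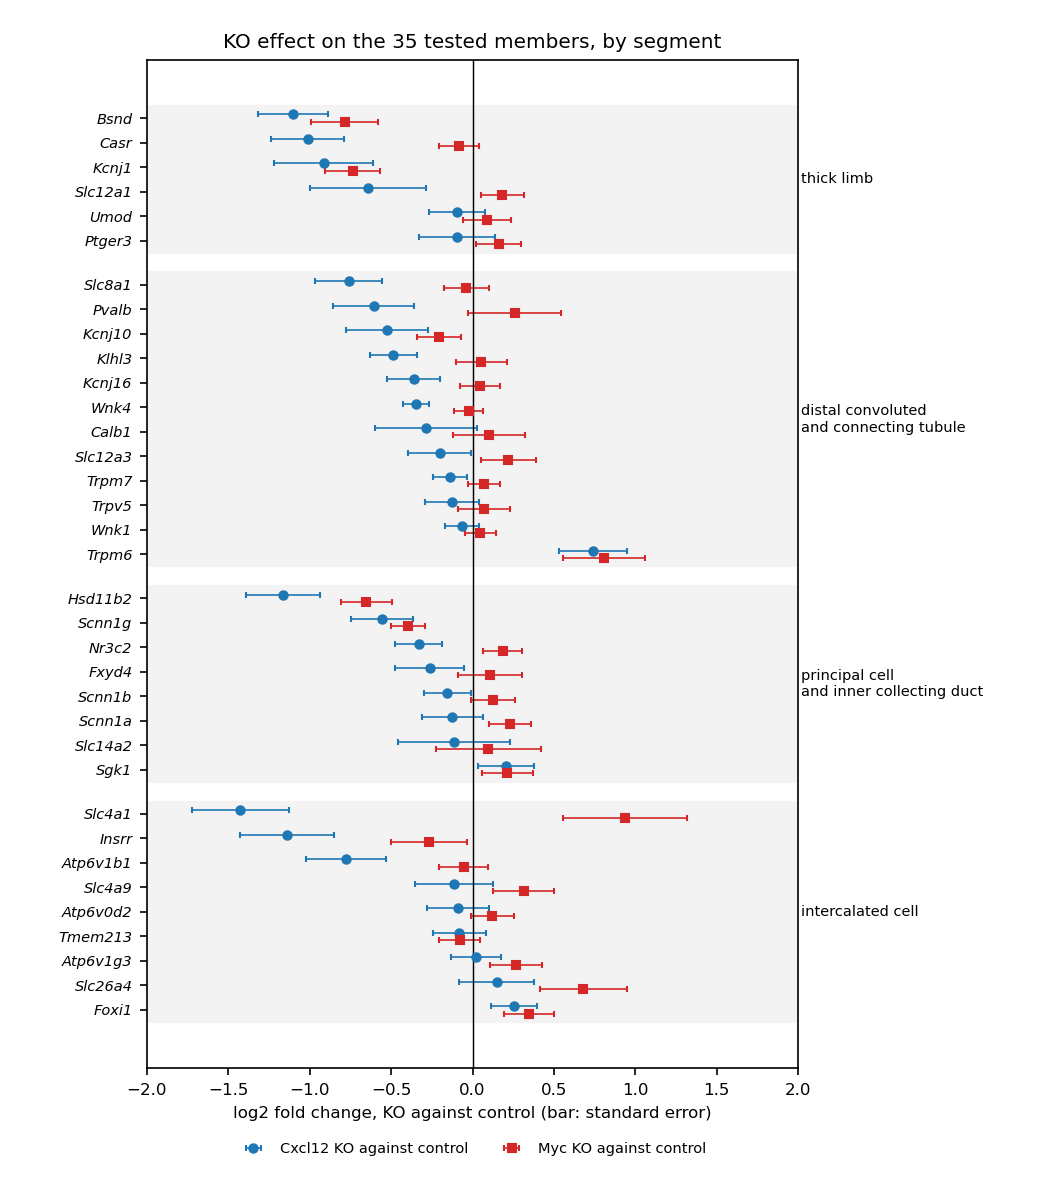
Log2 fold change of KO against control kidneys for the 35 tested genes, grouped by segment, with circles for the *Cxcl12* and squares for the *Myc* line and bars for the standard error. In the *Cxcl12* line 30 of 35 points lie below 0, with *Slc4a1* the lowest at -1.43, while in the *Myc* line 24 of 35 lie above 0.

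All 6 thick limb genes had a lower fitted level in *Cxcl12* KO kidneys, with log2 fold changes from -1.10 (*Bsnd*) to -0.09 (*Ptger3*), and 3 of the 6 in *Myc* KO kidneys. *Bsnd* (chr4:106483456-106492283, minus strand) encodes barttin, an accessory channel subunit of the basolateral membrane. Its levels were 18.9, 17.6 and 19.4 CPM in the 3 *Cxcl12* Control kidneys and 11.6, 11.5, 7.24, 6.72 and 5.95 CPM in *Cxcl12* KO kidneys 1 to 5. All KO kidneys lay below all controls, and the deeper pair lay nearest to them. The log2 fold change was -1.10 (SE 0.21, adjusted p = 0.092 in edgeR's test and 0.00066 in DESeq2). Levels of *Bsnd* in the *Myc* line were 11.8, 9.63, 7.38, 17.1 and 11.7 CPM in the control and 5.38, 8.28, 5.62, 6.52 and 7.37 CPM in the KO kidneys. Control 3 fell within the KO range and the other 4 controls lay above it, with a log2 fold change of -0.78 (SE 0.21, edgeR adjusted p = 0.076, DESeq2 adjusted p = 0.0096).

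*Casr* (chr16:36493696-36562141, minus strand) encodes the calcium-sensing receptor, which reads blood calcium at the basolateral side of the limb. It stood at 32.97, 27.3 and 28.5 CPM in *Cxcl12* Control and at 22.2, 15.95, 12.4, 13.4 and 8.99 CPM in *Cxcl12* KO kidneys. Again no KO kidney reached a control, KO 1 came nearest and KO 5 was farthest, and the log2 fold change was -1.01 (SE 0.22, adjusted p = 0.11 in edgeR and 0.0032 in DESeq2). In the *Myc* line the levels were 20.2, 14.4, 14.8, 17.98 and 19.3 CPM in control and 15.4, 19.1, 16.7, 13.6 and 16.8 CPM in KO kidneys. These ranges overlapped nearly fully, and the log2 fold change was -0.08 (SE 0.12, edgeR adjusted p = 0.72). The difference between the *Casr* effects of the 2 lines was 0.92 on the log2 scale (SE 0.26) and did not pass the threshold in edgeR (adjusted p = 0.13).

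*Kcnj1*, the ROMK potassium channel that recycles potassium for the salt cotransporter, was chosen for naming after its values had been seen. It had 133, 112 and 110.5 CPM in *Cxcl12* Control and 113, 72.7, 47.1, 42.4 and 37.6 CPM in *Cxcl12* KO kidneys. KO 1 lay among the controls, KO 2 lay between, and KO 3 to 5 lay far lower. The log2 fold change was -0.92 (SE 0.30, edgeR adjusted p = 0.25), and over the 6 kidneys outside the deeper group it was -1.50 (edgeR adjusted p = 0.0069). For *Myc* the values of *Kcnj1* were 84.5, 64.2, 54.8, 102 and 95.5 CPM in control and 41.7, 55.9, 50.6, 38 and 53.8 CPM in KO kidneys. Only control 3 fell within the KO range, and the log2 fold change of -0.74 (SE 0.17) had an edgeR adjusted p of 0.052, the smallest of the 35 genes in that line, and a DESeq2 adjusted p of 0.0019.

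*Slc12a1* (chr2:125152505-125230002, plus strand) encodes NKCC2, the furosemide-sensitive cotransporter that carries out salt uptake in the limb. Its levels were 378, 273 and 468 CPM in *Cxcl12* Control and 472, 229, 189, 121 and 186 CPM in *Cxcl12* KO kidneys. KO 1 had the highest value of all 8 kidneys and KO 2 to 5 lay below all controls, and the log2 fold change of -0.64 carried an SE of 0.35 (edgeR adjusted p = 0.47). Without the deeper kidneys it was -1.19 (edgeR adjusted p = 0.076). The *Myc* cohort had *Slc12a1* levels of 244, 246, 297, 226 and 315 CPM in control and 252, 267, 282, 317 and 386 CPM in KO kidneys, with a log2 fold change of 0.18 (SE 0.13, edgeR adjusted p = 0.44). 

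*Umod* (chr7:119462711-119479282, minus strand) encodes uromodulin, the most abundant protein of normal urine. It had 2619, 2789 and 3331 CPM in *Cxcl12* Control and 3580, 2490, 3063, 2116 and 2414 CPM in *Cxcl12* KO kidneys. The groups overlapped, and the log2 fold change was -0.10 (SE 0.17, edgeR adjusted p = 0.85). *Umod* in the *Myc* line had 2513, 3134, 3243, 3013 and 4510 CPM in control and 3132, 3686, 3329, 3248 and 4057 CPM in KO kidneys, again overlapping, with a log2 fold change of 0.09 (SE 0.15). The remaining thick limb gene, *Ptger3*, a prostaglandin E2 receptor, had log2 fold changes of -0.09 (SE 0.23) and 0.16 (SE 0.14).

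**Figure D2:**
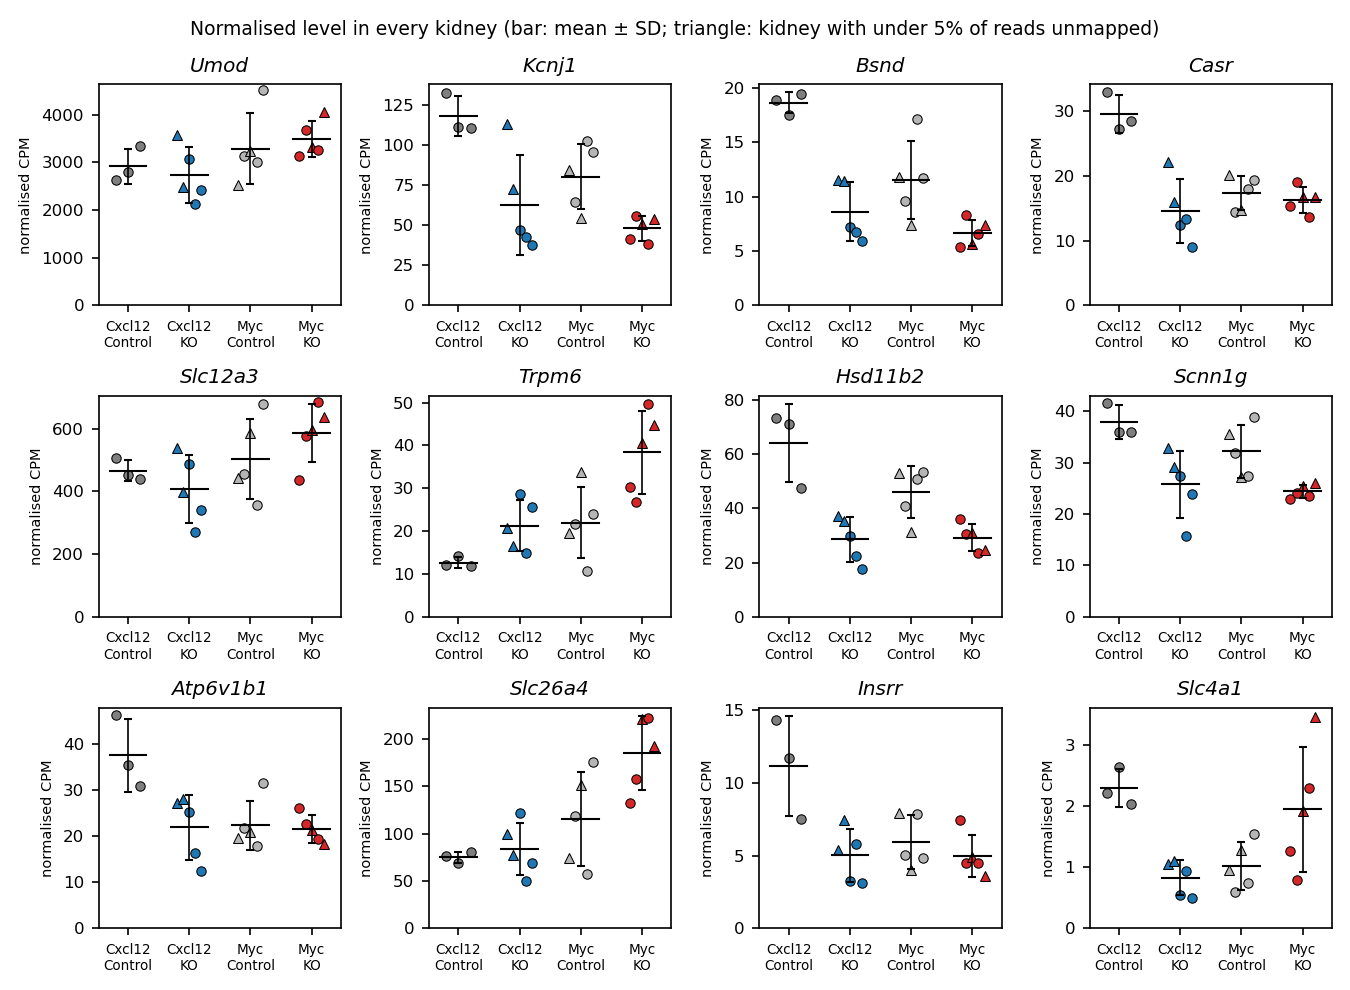
Normalised level (CPM, linear axes from 0) of 12 of the genes in every kidney, with the mean and SD of each group as a bar and the deeper kidneys as triangles. In *Bsnd*, *Casr*, *Hsd11b2*, *Scnn1g*, *Atp6v1b1*, *Insrr* and *Slc4a1* all 5 *Cxcl12* KO kidneys lie below the 3 controls. In *Trpm6* the *Cxcl12* KO kidneys lie above the controls, and in *Umod* the groups overlap.

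Of the 12 distal convoluted and connecting tubule genes, 11 had a lower fitted level in *Cxcl12* KO kidneys, and the median log2 fold change of the 12 was -0.32. In 4 of the 12 (*Pvalb*, *Slc8a1*, *Wnk4* and *Klhl3*) the KO kidneys lay below all controls, against 4.72% of all genes. *Slc8a1* (chr17:81373105-81738377, minus strand) encodes the sodium-calcium exchanger that returns calcium to the blood. Its levels were 30.3, 19.97 and 21.1 CPM in *Cxcl12* Control and 19.8, 14.7, 13.7, 10.4 and 11.5 CPM in *Cxcl12* KO kidneys. The highest KO kidney, KO 1, lay just below the lowest control, and the log2 fold change was -0.76 (SE 0.21, adjusted p = 0.17 in edgeR and 0.033 in DESeq2). Levels of *Slc8a1* in the *Myc* line were 17.7, 16.3, 19.3, 18.3 and 27.4 CPM in control and 17.7, 19.5, 18.5, 17.9 and 22.3 CPM in KO kidneys, with overlap and a log2 fold change of -0.04 (SE 0.14).

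*Trpm6* (chr19:18749983-18892511, plus strand), the magnesium channel of the distal convoluted tubule, had an effect of the opposite sign. It had 12, 14.2 and 11.8 CPM in *Cxcl12* Control and 20.8, 16.5, 28.8, 14.9 and 25.6 CPM in *Cxcl12* KO kidneys. All KO kidneys lay above all controls, and the log2 fold change was 0.74 (SE 0.21, adjusted p = 0.19 in edgeR and 0.033 in DESeq2). For *Myc* the values of *Trpm6* were 19.5, 21.6, 33.7, 10.8 and 23.97 CPM in control and 30.3, 26.8, 40.5, 49.6 and 44.8 CPM in KO kidneys. Every KO kidney lay above the control mean, control 3 lay within the KO range, and the log2 fold change was 0.81 (SE 0.25, adjusted p = 0.11 in edgeR and 0.025 in DESeq2). Its close relative *Trpm7*, a magnesium channel found in most cells, had log2 fold changes of -0.14 (SE 0.10) and 0.07 (SE 0.10).

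*Slc12a3* (chr8:94329201-94366214, plus strand) encodes the thiazide-sensitive sodium chloride cotransporter, which defines the distal convoluted tubule. It had 506, 454 and 441 CPM in *Cxcl12* Control and 539, 397, 487, 271 and 342 CPM in *Cxcl12* KO kidneys. The controls lay inside the KO range, with a log2 fold change of -0.20 (SE 0.19, edgeR adjusted p = 0.69). The *Myc* line had 442, 457, 587, 356 and 679.9 CPM of *Slc12a3* in control and 438, 578, 595, 684 and 639 CPM in KO kidneys, with overlap and a log2 fold change of 0.22 (SE 0.17). The kinases and the adaptor that set the activity of this cotransporter were *Wnk1*, *Wnk4* and *Klhl3*. Their log2 fold changes in *Cxcl12* KO kidneys were -0.07 (SE 0.10), -0.35 (SE 0.08) and -0.49 (SE 0.14), and those in *Myc* KO kidneys ran from -0.02 to 0.05. *Wnk4* and *Klhl3* were among the genes without overlap in the *Cxcl12* line, and *Wnk4* had a DESeq2 adjusted p of 0.0039 there.

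*Kcnj16* (chr11:110968033-111027968, plus strand) and *Kcnj10* encode the subunits of the basolateral potassium channel through which this segment senses plasma potassium. *Kcnj16* had 455, 441 and 394 CPM in *Cxcl12* Control and 439.9, 339.9, 319, 342 and 237 CPM in *Cxcl12* KO kidneys. KO 1 lay among the controls and the other 4 lay below them, with a log2 fold change of -0.36 (SE 0.16, edgeR adjusted p = 0.38). The *Myc* cohort had *Kcnj16* levels of 300.1, 267, 316, 389 and 358 CPM in control and 283, 325, 352, 311 and 409.9 CPM in KO kidneys, with overlap and a log2 fold change of 0.05 (SE 0.12). *Kcnj10*, named after its values were seen, had 81.4, 80.1 and 79.5 CPM in *Cxcl12* Control kidneys, a narrow range, and 85.8, 68.9, 49.5, 41.01 and 33.2 CPM in *Cxcl12* KO kidneys. KO 1 lay just above the controls and the other 4 below them, and the log2 fold change was -0.53 (SE 0.25, adjusted p = 0.40 in edgeR and 0.33 in DESeq2). Without the deeper kidneys it was -0.98 (edgeR adjusted p = 0.031). Over all 10 kidneys of the *Myc* line the *Kcnj10* value was -0.21 (SE 0.13, edgeR adjusted p = 0.38). The calcium-handling genes *Pvalb*, *Calb1* and *Trpv5* had log2 fold changes of -0.61, -0.28 and -0.13 in *Cxcl12* KO and of 0.26, 0.10 and 0.07 in *Myc* KO kidneys, none with an edgeR adjusted p under 0.05.

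Among the principal cell genes, those around aldosterone had fitted changes of both signs. *Hsd11b2* (chr8:105518755-105523988, plus strand) encodes the enzyme that inactivates cortisol and corticosterone and so keeps the mineralocorticoid receptor free for aldosterone. Its levels were 73.3, 71.3 and 47.5 CPM in *Cxcl12* Control and 37.3, 35.3, 29.9, 22.4 and 17.7 CPM in *Cxcl12* KO kidneys. No KO kidney reached a control, the deeper pair again lay nearest, and the log2 fold change was -1.17 (SE 0.23, adjusted p = 0.093 in edgeR and 0.00043 in DESeq2). *Hsd11b2* in the *Myc* line had 53.2, 40.8, 31.4, 50.6 and 53.5 CPM in control and 35.99, 30.7, 31, 23.5 and 24.8 CPM in KO kidneys. Control 3 lay within the KO range and the other 4 controls above it, with a log2 fold change of -0.65 (SE 0.16, adjusted p = 0.059 in edgeR and 0.0046 in DESeq2).

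*Nr3c2* (chr8:76899442-77245012, plus strand), the mineralocorticoid receptor itself, had 14.99, 15.9 and 12.6 CPM in *Cxcl12* Control and 13.6, 11.9, 12.6, 9.82 and 9.80 CPM in *Cxcl12* KO kidneys. KO 1 lay within the control range and the other 4 below it, KO 3 only just, with a log2 fold change of -0.33 (SE 0.14, edgeR adjusted p = 0.37). Levels of *Nr3c2* in the *Myc* line were 15.8, 12.5, 14.1, 10.8 and 15.2 CPM in control and 15.4, 13.5, 14.9, 15.96 and 18.01 CPM in KO kidneys, with overlap and a log2 fold change of 0.19 (SE 0.12). *Sgk1* (chr10:21882184-21999903, plus strand), the kinase that aldosterone induces and with the receptor palindrome in 1 of its 6 promoter windows, had 365, 242 and 316 CPM in *Cxcl12* Control and 448, 287, 390.4, 357 and 294 CPM in *Cxcl12* KO kidneys. It is one of the few genes of the list with a positive fitted log2 fold change in both lines, 0.20 (SE 0.17) for *Cxcl12* KO and 0.21 (SE 0.16) for *Myc* KO kidneys. The latter rested on 355, 335, 506, 246 and 420.2 CPM in control and 411, 382, 457, 448 and 459 CPM in KO kidneys, with overlap.

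The epithelial sodium channel is built from 3 subunits. *Scnn1g* (chr7:121734479-121768475, plus strand), the gamma subunit, had 41.7, 36.01 and 36.1 CPM in *Cxcl12* Control and 32.8, 29.1, 27.4, 15.7 and 24 CPM in *Cxcl12* KO kidneys. The *Myc* cohort had *Scnn1g* levels of 35.6, 31.9, 27.3, 27.3 and 38.9 CPM in control and 23.02, 24.1, 25.5, 23.5 and 26.1 CPM in KO kidneys. It was the only one of the 35 genes whose KO kidneys lay below all controls in both lines, with log2 fold changes of -0.56 (SE 0.19, edgeR adjusted p = 0.27) and -0.40 (SE 0.11, edgeR adjusted p = 0.08, DESeq2 adjusted p = 0.018). Of all genes, 4.72% lay so in the *Cxcl12* line and 3.92% in the *Myc* line. The share in both lines at once was not computed, so how unusual this is was not tested.

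*Scnn1a* (chr6:125320659-125344943, plus strand), the alpha subunit, had 127, 111 and 171 CPM in *Cxcl12* Control and 153, 127, 131, 83.9 and 133 CPM in *Cxcl12* KO kidneys. *Scnn1a* in the *Myc* line had 143, 123, 164, 97.98 and 164 CPM in control and 152, 160, 159, 184 and 157 CPM in KO kidneys. Both pairs of groups overlapped, and the log2 fold changes were -0.12 (SE 0.19) and 0.23 (SE 0.13). The beta subunit *Scnn1b* had -0.15 (SE 0.14) and 0.12 (SE 0.14). Of the last genes of this segment, *Fxyd4*, a regulator of the sodium pump, had log2 fold changes of -0.26 and 0.11, and *Slc14a2*, the urea transporter of the inner medulla, had -0.11 and 0.10, with SEs from 0.20 to 0.34.

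Of the 9 intercalated cell genes, 6 had a lower and 3 a higher fitted level in *Cxcl12* KO kidneys, and the counts in *Myc* KO kidneys were 3 and 6. *Slc4a1* (chr11:102348824-102366203, minus strand) encodes the anion exchanger band 3, found in acid-secreting intercalated cells and in red blood cells. Its counts were low, from 7 to 90 reads per kidney. It had 2.21, 2.64 and 2.03 CPM in *Cxcl12* Control and 1.06, 1.10, 0.544, 0.944 and 0.496 CPM in *Cxcl12* KO kidneys. The KO range lay wholly below the controls, with a log2 fold change of -1.43 (SE 0.30, adjusted p = 0.097 in edgeR and 0.0075 in DESeq2), the lowest of the 35 genes. For *Myc* the values of *Slc4a1* were 0.964, 0.59, 1.29, 0.739 and 1.54 CPM in control and 1.27, 0.788, 1.92, 2.30 and 3.47 CPM in KO kidneys. There KO 3 to 5 lay above all controls and KO 1 and 2 among them, with a log2 fold change of 0.94 (SE 0.38, edgeR adjusted p = 0.18). The difference between the effects of the 2 lines, 2.36 on the log2 scale (SE 0.52), had an edgeR adjusted p of 0.068, the smallest of the 35 genes. Because the exchanger is also a red cell gene, 8 erythroid genes were set beside it. The 6 of them that could be tested had a median log2 fold change of 1.15 in *Cxcl12* KO and -0.04 in *Myc* KO kidneys, and their part in the values of *Slc4a1* was not tested.

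*Insrr* (chr3:87796951-87816101, plus strand) encodes a receptor kinase that responds to alkaline pH in base-secreting intercalated cells. It had 14.3, 11.7 and 7.53 CPM in *Cxcl12* Control and 5.41, 7.43, 3.27, 5.83 and 3.10 CPM in *Cxcl12* KO kidneys. Control 3 and KO 2 lay almost level, though the groups did not overlap, and the log2 fold change was -1.14 (SE 0.29, adjusted p = 0.14 in edgeR and 0.012 in DESeq2). The *Myc* cohort had *Insrr* levels of 7.94, 5.05, 3.99, 7.88 and 4.86 CPM in control and 7.44, 4.51, 4.89, 4.47 and 3.63 CPM in KO kidneys, with overlap and a log2 fold change of -0.27 (SE 0.23). *Foxi1* (chr11:34204338-34208089, minus strand), the master regulator of intercalated cells, had 28.3, 26.3 and 29.6 CPM in *Cxcl12* Control and 41.2, 28.5, 39.1, 28.97 and 30.1 CPM in *Cxcl12* KO kidneys. Levels of *Foxi1* in the *Myc* line were 28.7, 34.6, 39.6, 22.6 and 46.5 CPM in control and 43.8, 44.3, 41.8, 43.8 and 44.97 CPM in KO kidneys. The KO kidneys lay in the upper part of the control range or above it in both lines, with overlap, and with log2 fold changes of 0.25 (SE 0.14, edgeR adjusted p = 0.47) and 0.35 (SE 0.15, edgeR adjusted p = 0.22).

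*Tmem213* (chr6:38109255-38115809, plus strand), a membrane protein gene of intercalated cells, had 25.2, 21.5 and 25.2 CPM in *Cxcl12* Control and 28.96, 20.99, 24.9, 16.04 and 22.9 CPM in *Cxcl12* KO kidneys. *Tmem213* in the *Myc* line had 23.9, 22.7, 27.8, 23.1 and 35.5 CPM in control and 24.4, 21.8, 26.9, 27.3 and 25.4 CPM in KO kidneys. Both effects were near 0, at -0.08 (SE 0.17) and -0.08 (SE 0.13). Of the 3 listed subunits of the vacuolar proton pump in *Cxcl12* KO kidneys, *Atp6v1b1*, the B1 subunit, had a log2 fold change of -0.78 (SE 0.24) and no overlap with the controls, whereas *Atp6v1g3* had 0.02 (SE 0.15) and *Atp6v0d2* had -0.09 (SE 0.19). In *Myc* KO kidneys the same subunits ran from -0.05 to 0.27. The bicarbonate exchangers of base-secreting cells, *Slc26a4* (pendrin) and *Slc4a9*, had 0.15 and -0.12 in *Cxcl12* KO kidneys and 0.68 (SE 0.27, edgeR adjusted p = 0.18) and 0.31 (SE 0.19) in *Myc* KO kidneys.

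The segments were then compared kidney by kidney, as the median over the genes of a segment of each gene's log2(CPM + 0.5) minus its mean in the control kidneys of the line. In the *Cxcl12* line the thick limb genes had the widest spread. The *Cxcl12* KO kidneys 1 to 5 stood at 0.12, -0.67, -1.08, -1.26 and -1.27 in that order, while the controls ran from -0.10 to 0.11. KO 1 thus lay just above the controls and the other 4 lay below them. The *Myc* KO kidneys ran from -0.24 to 0.15 for this segment, inside or near the span of their controls (-0.17 to 0.24).

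In the distal convoluted and connecting tubule genes the *Cxcl12* KO kidneys ran from -0.63 to 0.04, again with KO 1 the highest and KO 4 the lowest. In the principal cell genes they ran from -0.61 to 0.08 and in the intercalated cell genes from -0.58 to 0.14, and in both of these KO 4 and KO 5 were the lowest. In the principal cell genes KO 2 lay below all controls too. In the *Myc* line, the intercalated cell genes had the highest KO values, from 0.05 to 0.39, overlapping control values from -0.28 to 0.47. The medians of the fitted log2 fold changes were -0.78, -0.32, -0.21 and -0.09 in *Cxcl12* KO and 0.00, 0.06, 0.12 and 0.27 in *Myc* KO kidneys, for the thick limb, distal convoluted, principal cell and intercalated cell genes in that order. No test was made between segments, whose genes were measured in the same kidneys.

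**Figure D3:**
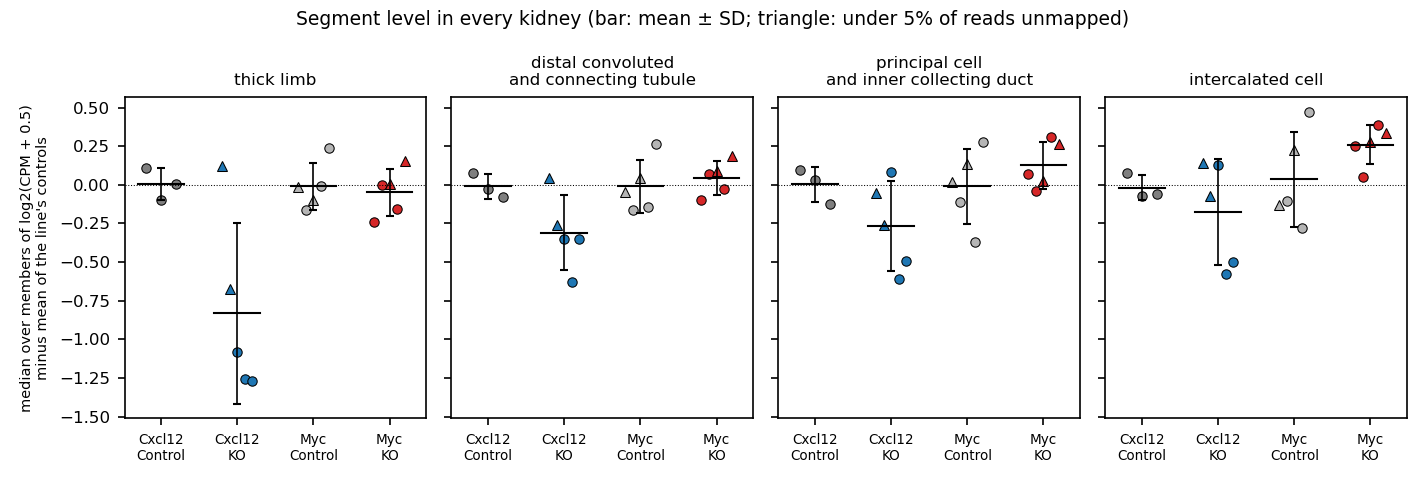
Median over the genes of each segment of the log2(CPM + 0.5) difference from the control mean of the line, 1 point per kidney, with the group mean and SD as a bar and the deeper kidneys as triangles. Thick limb values of *Cxcl12* KO kidneys 2 to 5 lie from -1.27 to -0.67, apart from KO 1 at 0.12 and from the controls.

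The KO kidneys were also unequal when genes were counted. Of the 35 genes, 11 (31.4%) in *Cxcl12* KO 1 lay below every control kidney, which compares with 34.6% of all genes tested, and 13 (37.1%) lay above every control, against 30.7% of all genes. In KO 2 the number below was 24 (68.6%, against 29.8% of all genes), in KO 3 it was 18 (51.4%, against 32.0%), in KO 4 it was 30 (85.7%, against 26.7%) and in KO 5 it was 28 (80.0%, against 32.8%). The numbers above every control were 1 (2.86%, against 30.9%) in KO 2, 8 (22.9%, against 31.7%) in KO 3, 1 (2.86%, against 30.7%) in KO 4 and 2 (5.71%, against 34.6%) in KO 5. The share below was thus highest in KO 4 and KO 5 and, in KO 1, no higher than that of all genes. In *Myc* KO kidneys 3 to 8 of the 35 genes lay below every control, or 8.57% to 22.9%, and all genes gave 16.5% to 26.6%.

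KO 1 and KO 2 are the deeper kidneys of the *Cxcl12* line, so the comparison was also run over the 3 KO and 3 control kidneys outside the deeper group. There edgeR called 5 of the 35 genes, all lower (*Kcnj1*, *Bsnd*, *Casr*, *Kcnj10* and *Hsd11b2*), against 0.535% of all genes and 0.254% lower, and the thick limb median was -1.275. With the deeper group as a covariate over all 8 kidneys edgeR called 6, adding *Slc4a1* and again all lower, against 0.812% of all genes and 0.363% lower. No *Cxcl12* Control kidney is deeper, so the KO effect of this fit again rests on the same 3 KO and 3 control kidneys. It is therefore not a separate check. In the *Myc* line, where the deeper kidneys are spread evenly, this covariate gave 3 calls (*Kcnj1*, *Bsnd* and *Hsd11b2*, all lower), against 6.39% of all genes and 3.96% lower, and the 6 kidneys outside the deeper group gave 0, with 0.0532% of all genes called. What sets the deeper kidneys apart, and its part in these values, was not tested.

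Set against each other, the *Myc* effect lay above the *Cxcl12* effect for 34 of the 35 genes, against 49.0% of all genes, with a median of 0.32 on the log2 scale beside -0.01 over all genes. By edgeR's quasi-likelihood test 0 of the 35 differences were called, against 0.0692% of 15903 genes, and 10 had an unadjusted p under 0.05, against 11.4% of all genes. DESeq2 called 1 of them, that of *Casr*, which is 2.86% of the 35, against 1.97% of all genes. Each line has its own controls. In 6 of the 35 genes (*Kcnj1*, *Bsnd*, *Casr*, *Klhl3*, *Kcnj16* and *Slc4a1*) all 3 *Cxcl12* Control kidneys lay above all 5 *Myc* Control kidneys and in 0 they lay below, where 5.88% and 6.23% of all genes did (12.1% in either direction). Over all 35 genes the *Cxcl12* Control mean was above the *Myc* Control mean in 19, with a median log2 ratio of 0.08, beside 8031 of 15903 genes tested and a median of 0.003. By segment this median was 0.52 for thick limb, 0.20 for distal convoluted, -0.035 for principal cell and -0.16 for intercalated cell genes. For *Cxcl12* KO over *Myc* Control kidneys the medians were -0.26, -0.16, -0.22 and -0.25 in that order, beside 0.002 over all genes. Line and any difference in handling between the cohorts cannot be told apart here.

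Levels between genes were compared only per length, as the median over 18 kidneys of normalised CPM per kb of exon. *Umod* led by far with 1134, followed by *Kcnj16* with 86.6 and *Sgk1* with 76.2. The cotransporter genes *Slc12a1* and *Slc12a3* stood at 46.8 and 42.4, and *Tmem213* at 39.03, the highest of the intercalated cell genes. The genes with the largest negative effects in *Cxcl12* KO kidneys lay low in this order, with *Bsnd* at 3.25, *Casr* at 3.55, *Insrr* at 0.915 and *Slc4a1* at 0.242, except *Hsd11b2* at 19.4 and *Kcnj1* at 18.02. Length was taken as the union of exons. With the length of the longest transcript the order below *Umod* was different, with *Sgk1* at 120.6, *Slc12a3* at 109.5, *Kcnj16* at 92.1 and *Slc12a1* at 57.0, so the order of these genes depends on which length is used.

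**Figure D4:**
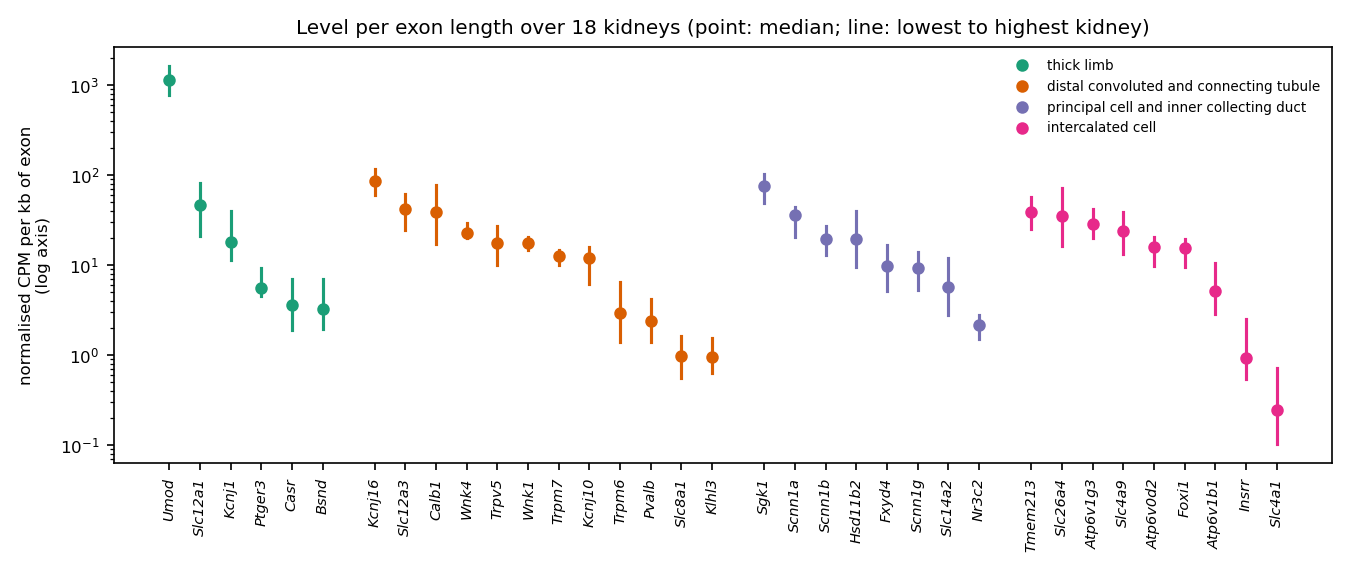
Normalised CPM per kb of exon on a log axis for the 36 genes except *Avpr2*, ordered within each segment, with the median of 18 kidneys as a point and the lowest to highest kidney as a line. *Umod* lies at a median of 1134, and *Slc4a1* is lowest at 0.242.

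A further 48 genes of the same segments and of the corticosteroid response were read from the same fits, again chosen with earlier results known. By edgeR 0 of 48 for *Cxcl12* KO and 0 of 47 for *Myc* KO were called, 13 and 7 had an unadjusted p under 0.05 (against 13.0% and 21.9% of all genes), and DESeq2 called 7 and 4 (against 2.34% and 7.63%). In the *Cxcl12* line 34 of the 48 had a lower fitted level, with a median log2 fold change of -0.19, and 10 had no overlap (20.8%, 9 lower and 1 higher, against 9.68% of all genes). In the *Myc* line 24 had a higher and 23 a lower fitted level, with a median of 0.00. By segment, the *Cxcl12* medians were -0.19 for 11 thick limb genes, -0.31 for 9 distal convoluted tubule genes, -0.18 for 10 principal cell genes and -0.27 for 14 intercalated cell genes. The 4 corticosteroid-induced genes had medians of 0.23 and 0.22 in the *Cxcl12* and *Myc* line, with 4 of 4 positive in each. Over all genes, 49.8% had a lower fitted level in *Cxcl12* KO and 49.9% a higher one in *Myc* KO kidneys. Of the 4, edgeR gave an unadjusted p under 0.05 to 0 in the *Cxcl12* and 2 in the *Myc* line.

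Sums of injured tubule and of leukocyte markers also differed in level between the *Cxcl12* groups, though single markers went both ways. The fitted level was higher in *Cxcl12* KO for 4 of 5 injured tubule and 5 of 7 tested leukocyte genes. In *Myc* KO it was higher for 3 of 5 and 6 of 7, and the rest were lower. Summed levels of 5 injured tubule genes were 9831 to 11730 CPM in *Cxcl12* Control and 12600 to 18680 CPM in *Cxcl12* KO kidneys, with no overlap, and those of 8 leukocyte genes were 60.5 to 65.3 and 70.4 to 164 CPM. The 10 proximal tubule markers had a lower fitted level in 10 of 10, with a median log2 fold change of -0.30, and their sums overlapped at 10060 to 15050 and 9074 to 12680 CPM. In the *Myc* line the sums were 12520 to 19570 CPM in control and 14310 to 22550 CPM in KO kidneys for injured tubule genes, and 96.4 to 255 and 182 to 287 CPM for leukocyte genes. Endothelial sums were 553 to 959 and 762 to 1133 CPM, and podocyte sums 322 to 554 and 492.7 to 613 CPM, in *Myc* Control and *Myc* KO kidneys. In *Cxcl12* Control and *Cxcl12* KO kidneys they overlapped, at 581.8 to 584.9 and 580.1 to 793.2 CPM for endothelium and 417.1 to 444.9 and 382.9 to 599.6 CPM for podocytes. Fibroblast, erythroid, urothelial and adrenal or fat markers overlapped between KO and control kidneys in both lines, and none of these lists had a marker at 0 throughout a group except adrenal and fat. The part of these markers in the results above was not tested.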

How the data were processed

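The authors trimmed the reads with Trimmomatic 0.32 and aligned and counted them with STAR 2.4.0 on GRCm38, as the submitters' processing notes name these tools, and they deposited raw counts per gene and kidney without normalization. For its own analysis the paper also reports an adjustment for batch effects with ComBat, and its methods do not say which kidneys formed a batch. That adjustment was not applied here. The annotation release is not given in the sources used here. The column that ignores strand was used, because the columns per strand held nearly equal shares, 51.8% to 52.4% and 52.3% to 52.8% of it. Rows for unmapped, multimapping, no-feature and ambiguous reads (3.69% to 6.48%, 16.6% to 18.6%, 4.77% to 7.07% and 2.26% to 2.52% of reads) were left out of library sizes and tests. Names, positions and exon lengths came from GENCODE vM21, in which 45143 of 45706 IDs were found.

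Low counts were removed per line by filterByExpr, libraries were scaled by TMM, and all kidneys of a line entered the quasi-likelihood test of edgeR 4.0.16 in R 4.3.3, two-sided, with Benjamini-Hochberg adjustment over all genes tested. A gene was called at an adjusted p under 0.05. The difference between lines was an interaction contrast over all 18 kidneys. The labels do not say whether kidneys came from separate mice, so p-values measure the spread between these samples. Members and lists were chosen with earlier results of these data known. Genes with values in every kidney were, besides any called gene, the 2 per segment and line with the largest change among those without overlap, the most abundant per exon kb in each segment, and 8 defining genes (*Umod*, *Slc12a1*, *Slc12a3*, *Scnn1a*, *Nr3c2*, *Sgk1*, *Foxi1* and *Slc4a1*). *Kcnj1*, *Kcnj10*, *Wnk4*, *Klhl3*, *Atp6v1b1* and *Slc26a4* and the 3 promoter motifs were added after values had been seen. Alternatives were other scaling, no filter, DESeq2 1.42.0, limma-voom (limma 3.58.1), 1 fit over all kidneys, a replicate block, the deeper group as a covariate or left out, each kidney left out, and, added after seeing the data, a GC and length correction, for which 36 of 36 genes had a value. Summaries used pandas 2.3.3 and numpy 2.4.6 under Python 3.11.15, and plots used matplotlib 3.10.9.

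These steps were tested on simulated data in which 100 genes were changed by 1 and 100 by 2 log2 units. The test called 93 and 100 of them in the *Cxcl12* design (14918 genes, 17 false calls), 98 and 100 in the *Myc* design (14721 genes, 7 false calls), and 81 and 99 for the difference (15727 genes, 7 false calls), 0 with the wrong sign. Only genes above a minimum mean level were changed. Counts were drawn independently for each gene, without shifts that many genes of a kidney share. These shares therefore need not hold for the real kidneys, where the test called 0 genes for *Cxcl12* KO.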

Additional observations from a re-analysis of the deposited data

Results flagged for a closer look

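Of 51 checks, each of 1 named gene in 1 group of 5 kidneys, 2 found a kidney far from the other 4 of its group, and chance alone does so in about 1 of 20 groups. *Scnn1a*, the alpha subunit of the sodium channel, had 183.9 CPM in *Myc* KO 4, where the nearest of the other *Myc* KO kidneys had 160.0 CPM. *Slc8a1*, the sodium-calcium exchanger, had 27.4 CPM in *Myc* Control 5, where the nearest other control had 19.3 CPM. The group of 3 *Cxcl12* Control kidneys was too small for this check.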

How the results depend on the processing

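All 3 counts of genes called over the whole table moved with the test and the samples. For *Cxcl12* KO, where edgeR called 0 genes, it called 25 in 1 fit over all kidneys, 13 with the GC and length correction, 214 without a filter on low counts, 123 with the deeper group as a covariate and 80 without the deeper kidneys, and DESeq2 called 355. The listed genes called were 2, 0, 6, 6, 5 and 8 in that order. For *Myc* KO the 246 genes became 683 in 1 fit over all kidneys, 954 with the deeper covariate, 8 without the deeper kidneys and 1139 with DESeq2, and the 0 listed genes became 1, 3, 0 and 5, and 1 with the GC and length correction, 2 without a filter and 2 with upper quartile scaling. For the difference between lines the 11 genes became 314 with DESeq2, 43 with the GC and length correction and 133 with the deeper covariate. Of the listed genes, DESeq2 called only *Casr* and the covariate fit only *Slc4a1*. Of the 48 further genes, called in *Cxcl12* KO were 1 in 1 fit, 7 with DESeq2, 3 with the covariate, 6 without a filter and 2 without the deeper kidneys, and in *Myc* KO 4 with DESeq2 and 1 with the covariate. The thick limb median in *Cxcl12* KO was -1.269 with the covariate and -1.275 without the deeper kidneys, against -0.78. Both settings rest on the same 3 KO and 3 control kidneys, because no *Cxcl12* Control kidney is deeper. The level of *Sgk1* per kb was 120.6 with the longest transcript, and that of *Slc12a3* 109.5 against 42.4. The cause was not tested.

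Leaving out 1 kidney at a time gave 0 to 15 genes and 0 to 1 listed genes called for *Cxcl12* KO, with 15 genes and *Casr* called without KO 1, 9 without KO 2 and 3 without Control 3. It gave 21 to 877 genes and 0 to 5 listed genes for *Myc* KO, with 877 and 5 (*Bsnd*, *Hsd11b2*, *Kcnj1*, *Scnn1g* and *Trpm6*) without Control 3, 21, 29, 54 and 78 without KO 2, 3, 4 or 5, and 35, 96 and 108 without Control 2, 4 or 5. The difference between lines gave 1 to 75 genes (75 without *Myc* KO 5, 27 without *Cxcl12* KO 1) and 0 to 1 listed genes (*Casr* without *Cxcl12* KO 1), moved by over 1.5 times by every kidney but *Cxcl12* KO 5, and the further genes 0 to 2 for *Myc* KO. Small effects of uncalled genes changed sign. Without the deeper kidneys *Kcnj16* in *Myc* KO was -0.133 and *Umod* -0.073, and with the GC and length correction *Tmem213* was 0.008 in *Cxcl12* KO and 0.045 in *Myc* KO. With 1 kidney left out, *Kcnj16* in *Myc* KO ran from -0.035 to 0.117, *Scnn1a* in *Cxcl12* KO from -0.252 to 0.068, *Slc8a1* in *Myc* KO from -0.099 to 0.107, *Tmem213* from -0.188 to 0.024 in *Cxcl12* KO and from -0.128 to 0.047 in *Myc* KO, and *Umod* in *Cxcl12* KO from -0.215 to 0.008. Among the 17 genes named by rule, these and those under the replicate block were the only changes of sign.

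Whether equal replicate numbers pair the kidneys is not known. The paper describes the mice as littermates, without linking them to replicate numbers. Deviations of KO and control kidneys with equal numbers correlated at -0.03 to 0.13 (*Cxcl12* line) and at -0.21 to 0.40 (*Myc* line). Their means were 0.07 and 0.05, against -0.02 and -0.01 for unequal numbers. Not every kidney was nearest to its own number. With the replicate number as a block, edgeR called 0 genes for *Cxcl12* KO, 18 for *Myc* KO and 1 for the difference, and 0 of the listed genes in each. Under this block *Scnn1a*, *Slc12a3*, *Tmem213* and *Umod* in *Cxcl12* KO had log2 fold changes of 0.026, 0.014, 0.049 and 0.054.

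Low counts, among them those of *Slc4a1*, *Pvalb*, *Insrr*, *Klhl3* and *Bsnd*, add counting error. The 12 genes without overlap in the *Cxcl12* line had a median GC content of 53.2%, against 49.01% over the other 23. Unstranded counting leaves the overlaps of *Tmem213*, *Wnk4* and *Nr3c2* with opposite-strand genes (9.83%, 7.38% and 3.82% of exon length) unresolved.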

Other observations

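Among the 48 further genes, some neighbours of the listed genes in function had large effects, and they are named here after their values had been seen. Thick limb claudins seal or open the path between cells for cations. *Cldn10* had 72.5, 56.95 and 49.1 CPM in *Cxcl12* Control and 42.4, 37.9, 35.9, 24.6 and 22.3 CPM in *Cxcl12* KO kidneys, with no overlap and a log2 fold change of -0.87 (SE 0.20, adjusted p = 0.12 in edgeR and 0.0073 in DESeq2), and 0.00 (SE 0.10) in the *Myc* line. *Cldn19* had log2 fold changes of -0.67 (SE 0.17) and -0.52 (SE 0.17), with adjusted p of 0.14 and 0.12 in edgeR and 0.020 and 0.045 in DESeq2, and *Cldn16* had -0.11 (SE 0.28) and -0.17 (SE 0.19).

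*Rhcg*, the ammonia channel of the distal nephron, had 40.4, 40.8 and 35.8 CPM in *Cxcl12* Control and 28.3, 23.5, 16.3, 10.2 and 9.80 CPM in *Cxcl12* KO kidneys, with a log2 fold change of -1.14 (SE 0.30, adjusted p = 0.16 in edgeR and 0.013 in DESeq2). In the *Myc* line it had 25.4, 17.6, 15.4, 20.8 and 22.3 CPM in control and 12.3, 16.6, 13.99, 11.6 and 13.5 CPM in KO kidneys, with a log2 fold change of -0.57 (SE 0.14, adjusted p = 0.063 in edgeR and 0.0080 in DESeq2). Its relative *Rhbg* had -0.63 (SE 0.30) and -0.07 (SE 0.24). *Pth1r*, the parathyroid hormone receptor, which the proximal tubule also expresses, had -0.55 (SE 0.11, adjusted p = 0.094 in edgeR and 0.00067 in DESeq2) and -0.09 (SE 0.12), and *Egf*, the growth factor made by the distal convoluted tubule, had -0.31 (SE 0.29) and 0.52 (SE 0.15), with a DESeq2 adjusted p of 0.018 in the *Myc* line. The water channel *Aqp2* of principal cells had 0.01 (SE 0.28) and -0.23 (SE 0.27).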
